A study of Mus musculus with 8 samples.

Results

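The genes described here are 10 components of the Notch pathway, namely the receptors *Notch1*, *Notch2* and *Notch3*, the ligands *Jag1* and *Dll1*, the DNA-binding factor *Rbpj*, and the target genes *Hes1*, *Hey1*, *Hey2* and *Heyl*. They were taken by symbol and gene identifier from 52325 identifiers listed in each library, and each of the 10 was found once. RNA-seq had been performed on chondrocytes from the ribs of 7-day-old mice, with 4 wild-type and 4 *Mir140*-null libraries. Founder mice were of mixed C57BL/6 and CBA/ca background, and their line was backcrossed onto C57BL/6J. The null allele was a CRISPR/Cas9 deletion that removes every miRNA of the *Mir140* locus, so neither strand of the precursor nor any isomiR can be singled out. Animals of both genotypes descended from heterozygous intercrosses and were then kept as a wild-type and a null line, so genotype and line cannot be told apart. The comparison asks which transcripts change when the miRNAs of the locus are missing from cartilage cells.

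Notch receptors are single-pass membrane proteins that are activated by Jagged and Delta-like ligands on a neighbouring cell. Ligand pulling exposes the receptor to an ADAM protease and then to the γ-secretase complex, which releases the intracellular domain. That domain binds RBPJ and a Mastermind-like coactivator in the nucleus and switches on the *Hes* and *Hey* genes, which encode basic helix-loop-helix repressors. In the growth plate, Notch signalling is known to take part in the passage of chondrocytes from proliferation to hypertrophy, and the pathway is also highly active in endothelium and in vascular mural cells.

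The miRNA sequence and the matching 3′UTR words are shown first, because several of the 10 genes carry them. The mature miR-140-3p of RefSeq lies at chr8:107551288-107551308 on the plus strand of GRCm38.p6. Capitals mark the seed, bases 2 to 8, in the annotated form (termed miR-140-3p.2 in the study) and in the form that starts 1 base later (termed miR-140-3p.1). The mature miR-140-5p was not used here.
mmu-miR-140-3p: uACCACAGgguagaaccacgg
mmu-miR-140-3p without its first base: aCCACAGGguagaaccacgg

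A seed match was sought on the sense strand, in the longest 3′UTR that GENCODE M21 annotates for each gene (mm10), as CTGTGGT for the annotated form and CCTGTGG for the shifted form. The 2 words overlap by 6 letters and can share a position. *Notch2* held CTGTGGT at 2 positions, and *Jag1* and *Rbpj* held it at 1 position each. The windows of 30 bases below are written 5′ to 3′ on the gene's strand, with the word in capitals. They lie at chr3:98147901-98147930 and chr3:98148910-98148939 (plus strand) for *Notch2*, chr2:137082847-137082876 (minus strand) for *Jag1* and chr5:53656683-53656712 (plus strand) for *Rbpj*.
Notch2 first: tctgcgcccgtCTGTGGTtgatccccgtca
Notch2 second: aacatttttatCTGTGGTaatctaggatga
Jag1: actggtagtttCTGTGGTtggctgggaaat
Rbpj: gcctccaggtcCTGTGGTaccaggtgtggc

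The shifted word was present in *Notch1* (chr2:26458398-26458427, minus strand) and *Heyl* (chr4:123247821-123247850, plus strand), and in *Rbpj* it overlapped the match already shown. These windows are given because neither gene holds the annotated word.
Notch1: tcaagtatacgCCTGTGGcagaataagtat
Heyl: gttgtaaggagCCTGTGGgcacaagattag

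The second *Notch2* match and the *Rbpj* match are followed by an A, which makes them 8mer matches. *Dll1*, with a 3′UTR of 676 bases, held neither word, and the same was true of *Notch3*, *Hes1*, *Hey1* and *Hey2*. Of 12981 tested genes with an annotated 3′UTR, 19.0% held CTGTGGT, 20.2% held CCTGTGG and 30.2% held either, against 3, 3 and 5 of the 10 genes described here. Their 3′UTR lengths ranged from 368 bases in *Hes1* to 3742 bases in *Rbpj*, and the median over all these genes was 1157 bases. A match gives the position of these letters and does not show binding.

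Expression values were in TPM (transcript abundance relative to the total of a library), a unit scaled also for transcript length. Sequencing depth is not kept in this unit, so the exact depth of each library was unknown. Between 15800 and 17950 genes per library reached 0.5 TPM. *Mir140* itself was listed at 0 TPM in 7 libraries and at 8.86 TPM in *Mir140*-null replicate 2, so this entry did not check the labels. Mitochondrial genes took 4.06% to 6.99% of TPM in wild-type and 8.41% to 10.1% in null libraries. The cartilage markers were high in every library, with *Col2a1*, the main collagen of cartilage, between 34418 and 61630 TPM. Summed over 10 chondrocyte markers, expression was 57389 to 72608 TPM in wild-type and 42062 to 57805 TPM in null libraries. Most of this sum was *Col2a1*.

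*Mir140*-null replicates 1 and 2 stood apart from the other 6 libraries in markers of several neighbouring cell types. The 8 fibroblast and perichondrium markers summed to 599.5 and 749.7 TPM in them, to 3862 and 5295 TPM in null replicates 3 and 4, and to between 3099 and 5927 TPM in wild-type. Of these 8 markers, 6 were lower in both of null replicates 1 and 2 than in any wild-type library. *Prrx1*, at 12.3 and 8.95 TPM in them, was not lower. *Pdgfra* was higher, at 31.5 to 36.5 TPM over all null libraries against 11.8 to 19.8 TPM in wild-type. The 10 endothelial markers summed to 19.9 to 24.1 TPM in null replicates 1 and 2, 50.6 to 105 TPM in null replicates 3 and 4, and 31.7 to 67.2 TPM in wild-type. None of the endothelial markers was at 0 in every library. Of the 8 mural markers, 7 were lower in both of these null libraries than in any wild-type library, as were 5 of 7 osteoblast, 5 of 8 leukocyte, 5 of 8 skeletal muscle and 4 of 6 erythroid markers. The mural sum was not lower, at 222.1 and 183.8 TPM in null replicates 1 and 2 against 138.4 to 227.3 TPM in wild-type. The other mural marker, *Cspg4*, was 126 to 192 TPM in null and 38.7 to 80.8 TPM in wild-type libraries. The skeletal muscle sum was low in all null libraries, at 37.5 to 62.6 TPM against 79.2 to 105.8 TPM in wild-type. *Des* is in both the mural and the skeletal muscle list. The share of all tested genes that were lower in this way in null replicates 1 and 2 is not given here. In both of null replicates 3 and 4, 2 mural, 2 leukocyte and 2 skeletal muscle markers were likewise below every wild-type library. So were 5 of the 10 chondrocyte markers and 1 of the 6 hypertrophic markers. In both of null replicates 1 and 2, 3 of the 10 chondrocyte markers were below every wild-type library. The 6 markers of hypertrophic chondrocytes summed to 156 to 343 TPM in wild-type and 172 to 276 TPM in null libraries, and 1 of the 6 was lower in both of null replicates 1 and 2. Of the 10 chondrocyte markers, 1 (*Acan*) was called higher and 3 (*Hapln1*, *Col9a1* and *Col11a1*) lower over all null libraries in the fit described next. Wild-type replicate 1 had the lowest value of its genotype for 7 of the 10 Notch genes, and for 39.3% of all tested genes. The fitted difference of each Notch gene and of each called pathway gene described is therefore also given without null replicates 1 and 2, a comparison added after the data were seen. The part that cell composition plays in the differences was not tested.

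**Figure D1:**
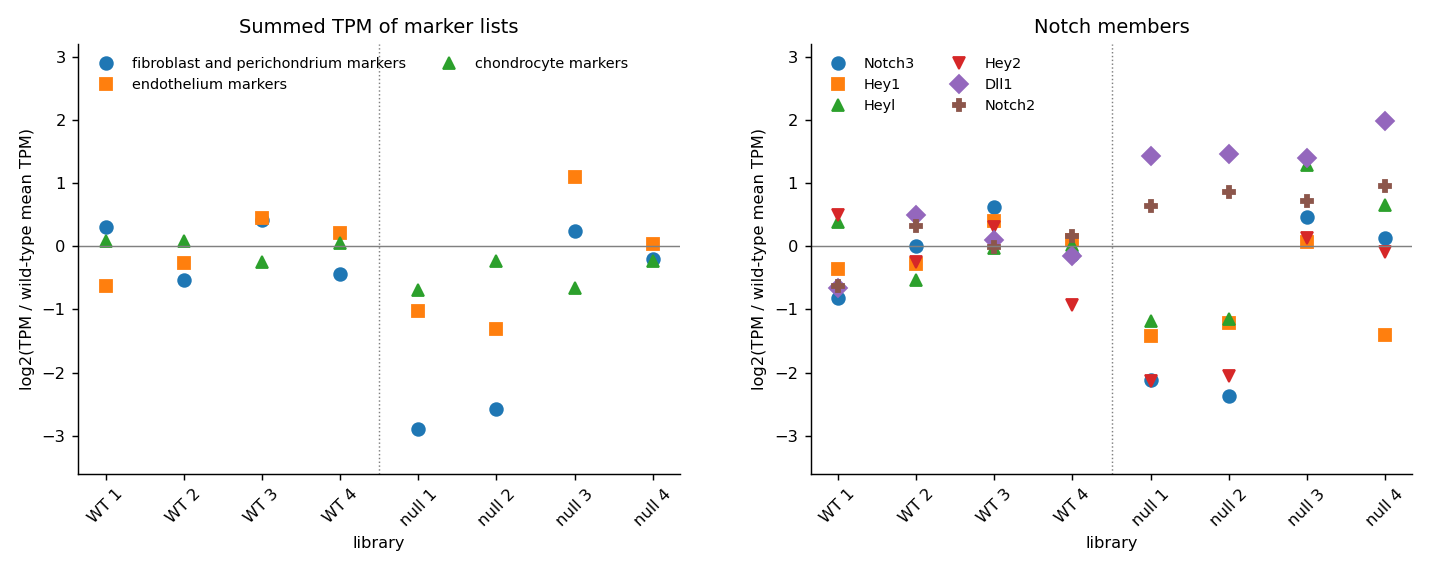
Left, summed TPM of marker lists in each library as log2 of the ratio to the wild-type mean. Right, the same ratio for Notch genes; null replicates 1 and 2 lie below the other libraries for fibroblast and endothelial markers and for *Notch3* and *Heyl*.

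A limma fit on log2(TPM + 1) was made over 17177 genes that reached 0.5 TPM in at least 4 libraries. At a Benjamini-Hochberg adjusted p below 0.05, 2897 of these genes (16.9%) were called, of which 1797 were higher and 1100 lower in null libraries. The share of calls that were higher was 62.0%, and 50.9% when libraries were scaled by median ratios. The pseudocount of 1 TPM makes the fold changes of low genes smaller than the ratios of their TPM. Replicates are separate samples by their labels. The p-values set the genotype difference against the spread between these samples, which limma moderates across genes.

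Of the 10 Notch genes, 9 entered the fit, and 3 of them (*Dll1*, *Notch2* and *Jag1*) were up-regulated in null chondrocytes, beside 10.5% of all genes tested. No Notch gene was down-regulated in limma, against 6.4% of all genes. At an unadjusted p below 0.05, 4 of the 9 were higher and 1 was lower, beside 19.0% and 14.9% of all genes. *Dll1*, *Notch2* and *Jag1* also had every null library above every wild-type library, which held for 15.7% of all tested genes, while the reverse order held for 10.2%. Over the 9 tested Notch genes the median log2 difference was 0.20, against -0.01 over all tested genes. It was 0.50 without null replicates 1 and 2, against 0.07 over all tested genes, and 0.45 with 1 factor estimated from control genes in the fit, again against 0.07. The median of 9 genes is the value of 1 gene, which was *Rbpj* in the main fit and *Heyl* in these alternative fits. *Heyl* was at 0.317 to 1.76 TPM, and its own difference was 0.06 in the main fit. Without null replicates 1 and 2, none of the 9 passed in limma, beside 3.3% of all genes called, 2.08% as higher and 1.22% as lower. At an unadjusted p below 0.05, 5 of the 9 were then higher and 0 lower, beside 16.5% and 8.44% of all genes.

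**Figure D2:**
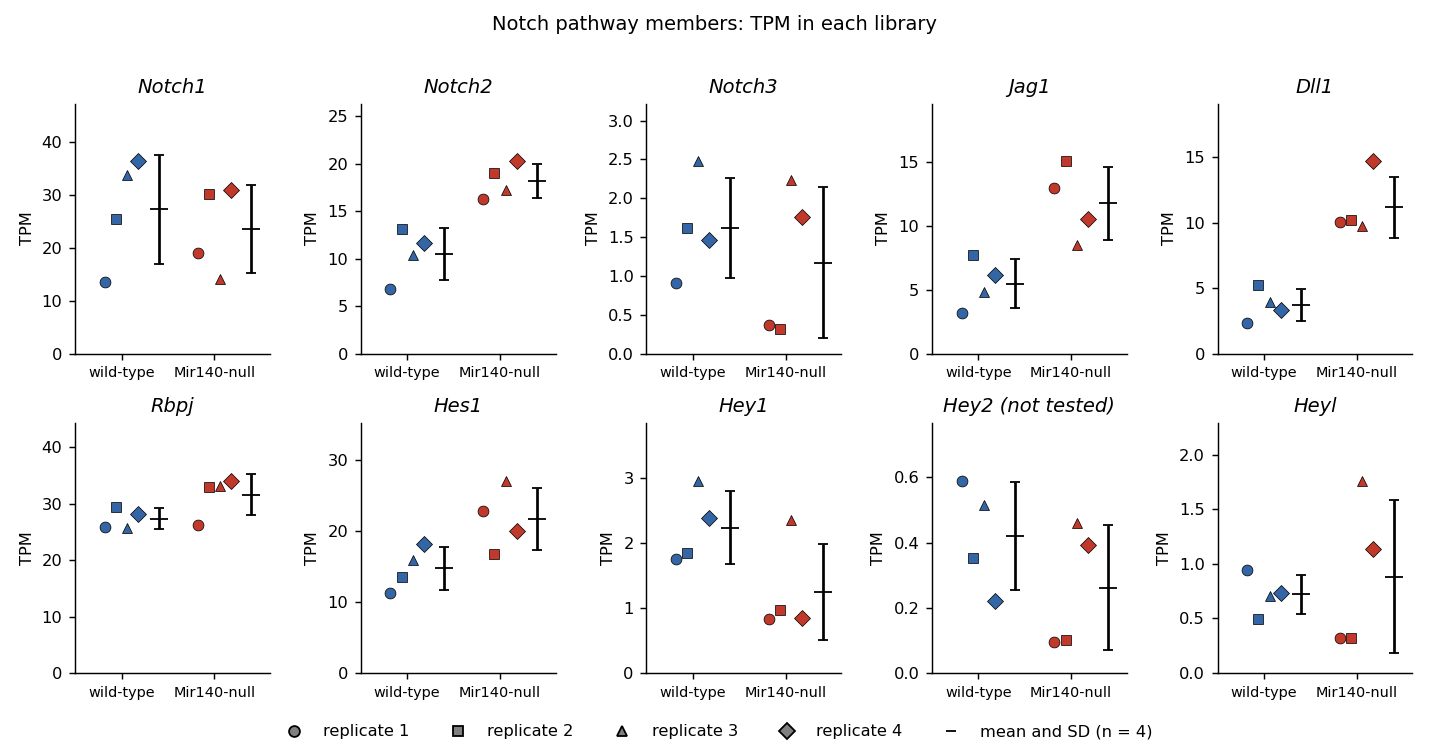
TPM of each Notch gene in the 4 wild-type and 4 *Mir140*-null libraries, with one symbol per replicate and bars for the mean and SD. The genotypes are separate for *Notch2*, *Jag1* and *Dll1* and overlap for the other genes; *Hey2* was not tested.

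Among the receptors, *Notch2* (ENSMUSG00000027878, chr3:98013527-98150361, plus strand) was the one that rose. Its TPM was 6.77, 13.1, 10.4 and 11.7 in wild-type replicates 1 to 4 and 16.2, 19.0, 17.2 and 20.2 in null replicates 1 to 4. The lowest null library was above the highest wild-type library. Mean TPM was 10.47 ± 2.71 (SD, n = 4) in wild-type and 18.2 ± 1.80 (SD, n = 4) in null libraries. The log2 fold change was 0.77 with an SE of 0.19, and the limma adjusted p was 0.0317. Without null replicates 1 and 2 the difference was 0.81 (SE 0.26) with a limma adjusted p of 0.126. The call was also lost when either of these libraries, null replicate 4, or wild-type replicate 3 or 4 was left out alone, with log2 fold changes of 0.59 to 0.88 over all single omissions.

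*Notch1*, the receptor gene with the highest mean, did not pass the test. It lies at chr2:26457903-26516663 on the minus strand. Its TPM was 13.5, 25.5, 33.9 and 36.4 in wild-type and 19.0, 30.3, 14.1 and 30.9 in null libraries. Both genotypes spanned a more than 2-fold range and they overlapped almost fully. Means were 27.3 ± 10.3 and 23.6 ± 8.35 TPM (SD, n = 4 each), and the log2 fold change was -0.18 (SE 0.36, limma adjusted p = 0.753). It was -0.27 without null replicates 1 and 2 (limma adjusted p = 0.765), and the sign turned when null replicate 3 was left out, at 0.03.

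*Notch3*, the receptor of vascular mural cells, was expressed at a low level. It is annotated at chr17:32120820-32166852 on the minus strand. Its TPM was 0.915, 1.61, 2.48 and 1.46 in wild-type, and 0.373, 0.314, 2.24 and 1.76 in null libraries. The low null values were those of replicates 1 and 2, the libraries with low fibroblast and endothelial markers, and the genotypes overlapped. For *Notch3* the log2 fold change was -0.35 (SE 0.34, limma adjusted p = 0.496) and became 0.23 without these libraries (limma adjusted p = 0.619). *Notch4*, a receptor of endothelium that was not tested because of its low values, had 0.284 to 1.14 TPM in wild-type and 0.0361 to 0.709 TPM in null libraries.

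The summed TPM of the 4 receptor genes was 39.9 ± 12.9 (SD, n = 4) in wild-type and 43.3 ± 9.85 (SD, n = 4) in null libraries, with overlapping ranges. The *Notch1* and *Notch2* shares of this sum did not overlap between genotypes, whereas those of *Notch3* and *Notch4* did. *Notch2* supplied 21.6% to 32.2% of the sum in wild-type and 37.7% to 50.2% in null libraries. The *Notch1* share was 62.7% to 73.1% and 41.3% to 60.7%, respectively. The ratio of *Notch2* to *Notch1* TPM ranged from 0.306 to 0.513 in wild-type and from 0.627 to 1.21 in null libraries, with the highest ratio in null replicate 3, where *Notch1* was lowest. No test was made on these shares, which are built from values already compared.

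**Figure D3:**
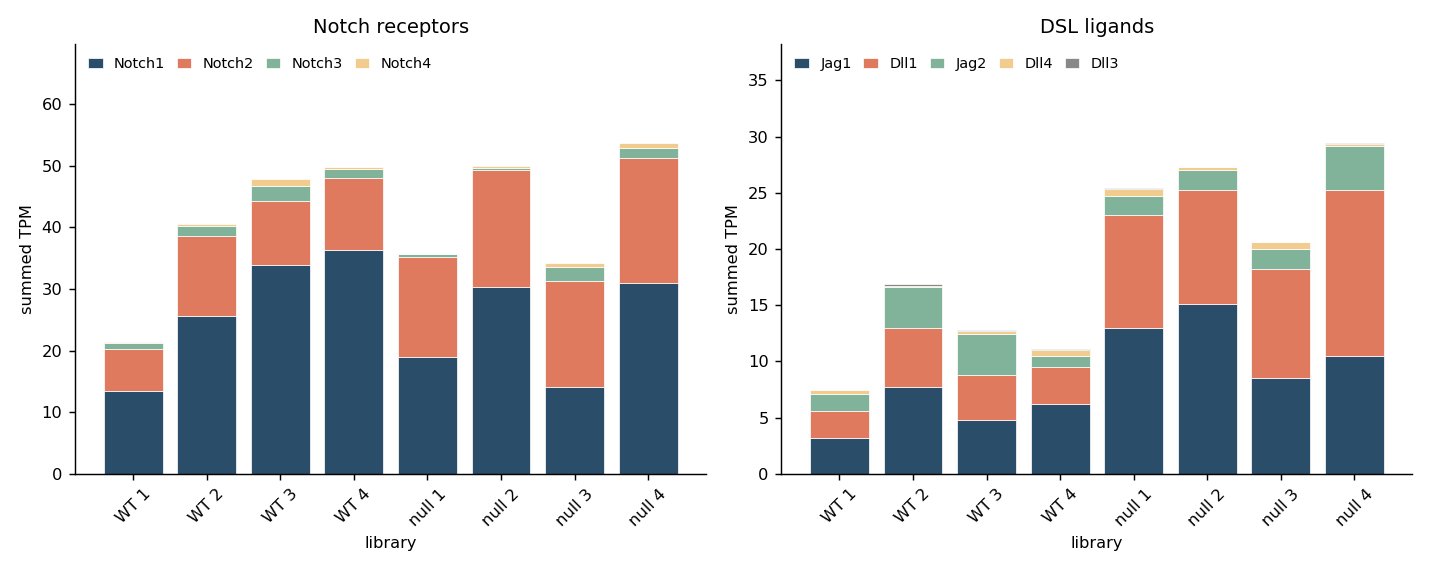
Stacked bars of summed TPM in each library for the receptor genes (left) and the ligand genes (right). The receptor sum overlaps between genotypes with a larger *Notch2* share in null libraries, and the ligand sum is 7.47 to 16.9 TPM in wild-type and 20.6 to 29.4 TPM in null libraries.

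The ligands showed the largest rises of the 10 genes. *Dll1*, a Delta-like ligand, lies at chr17:15367354-15376872 on the minus strand. Its TPM was 2.36, 5.23, 3.96 and 3.33 in wild-type, and 10.04, 10.2, 9.77 and 14.7 in null libraries. Each null library exceeded each wild-type library, and null replicate 4 was above the other 3. Means were 3.72 ± 1.2 and 11.2 ± 2.35 TPM (SD, n = 4 each), a ratio of 3.01. The log2 fold change was 1.39 (SE 0.22) with a limma adjusted p of 0.00898, and it passed in all 8 fits that left out 1 library. Without null replicates 1 and 2 the log2 fold change was 1.5 (SE 0.29), and the limma adjusted p was 0.0536.

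*Jag1*, a Jagged ligand, lies at chr2:137081456-137116644 on the minus strand. Its TPM was 3.19, 7.70, 4.82 and 6.17 in wild-type, and 13.0, 15.1, 8.49 and 10.5 in null libraries. The ranges did not overlap, and the highest null values were those of replicates 1 and 2. Means were 5.47 ± 1.92 and 11.8 ± 2.87 TPM (SD, n = 4 each). The log2 fold change was 1.003 (SE 0.26, limma adjusted p = 0.0348). It fell short of the threshold without null replicates 1 and 2, at 0.74 (SE 0.31, limma adjusted p = 0.201). The call was also lost on leaving out wild-type replicate 1, 3 or 4, or null replicate 1, 2 or 4, with log2 fold changes of 0.81 to 1.16 over all single omissions.

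*Jag2*, the other Jagged ligand, had 1.57, 3.67, 3.62 and 0.968 TPM in wild-type and 1.71, 1.73, 1.73 and 3.95 TPM in null libraries. Its groups overlapped and its log2 fold change was -0.03 (SE 0.34, limma adjusted p = 0.959), a sign that turned without null replicates 1 and 2 (0.19, limma adjusted p = 0.837). *Dll4*, a ligand of endothelium, stayed at 0.121 to 0.530 TPM in wild-type and 0.192 to 0.619 TPM in null libraries and was not tested. The summed TPM of the 5 ligand genes (*Jag1*, *Jag2*, *Dll1*, *Dll3* and *Dll4*) divided by the summed receptor TPM was 0.223 to 0.415 in wild-type and 0.548 to 0.715 in null libraries. *Dll1* made up 29.97% to 31.6% of the ligand sum in wild-type and 37.4% to 49.99% in null libraries.

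*Rbpj*, which encodes the DNA-binding factor of the pathway, lies at chr5:53466152-53657362 on the plus strand and had the highest mean of the 10 genes. Its TPM was 25.8, 29.5, 25.8 and 28.3 in wild-type, and 26.1, 33.0, 33.2 and 34.05 in null libraries. Null replicate 1 lay within the wild-type range and the other 3 null libraries lay above it. Its log2 fold change was 0.20 (SE 0.12, limma adjusted p = 0.267), and 0.29 without null replicates 1 and 2 (limma adjusted p = 0.164). Its pseudogenes *Rbpj-ps1* and *Rbpj-ps3* were at 0 TPM in every library.

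Of the target genes, *Hes1* was the most abundant. It lies at chr16:30064384-30067796 on the plus strand. *Hes1* had 11.3, 13.6, 16.0 and 18.2 TPM in wild-type and 22.9, 16.8, 27.1 and 20.0 TPM in null libraries. Null replicate 2 was below wild-type replicate 4, and the other 3 null libraries were above every wild-type library. Means were 14.8 ± 2.98 and 21.7 ± 4.36 TPM (SD, n = 4 each). Its log2 fold change was 0.53 (SE 0.19, limma adjusted p = 0.0887) and 0.65 without null replicates 1 and 2 (limma adjusted p = 0.146). The positive sign was kept in all the fits made.

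*Hey1* lies at chr3:8663359-8667256 on the minus strand and had lower values in most null libraries. It had 1.75, 1.85, 2.96 and 2.40 TPM in wild-type and 0.834, 0.966, 2.36 and 0.850 TPM in null libraries. Null replicate 3 was within the wild-type range, whereas the other 3 lay below it. For *Hey1* the log2 fold change was -0.56 (SE 0.23, limma adjusted p = 0.125). Leaving out null replicate 3 gave -0.77 and a limma adjusted p of 0.0263, and leaving out null replicates 1 and 2 gave -0.36 (limma adjusted p = 0.478).

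*Heyl* and *Hey2*, which are targets of Notch in vascular cells, were near or below 1 TPM. *Heyl* (chr4:123233556-123249875, plus strand) had 0.940, 0.4997, 0.707 and 0.733 TPM in wild-type and 0.317, 0.325, 1.76 and 1.13 TPM in null libraries. Null replicates 1 and 2 were below every wild-type library and replicates 3 and 4 above them, and the log2 fold change was 0.06 (SE 0.25, limma adjusted p = 0.881). Without null replicates 1 and 2 it was 0.50 (limma adjusted p = 0.136). *Hey2* (chr10:30832359-30842801, minus strand) had 0.220 to 0.589 TPM in wild-type and 0.0955 to 0.459 TPM in null libraries, with the lowest values again in null replicates 1 and 2. In bulk samples, fewer cells of a type and less RNA per cell cannot be told apart. *Heyl*, *Notch3* and *Rbpj* were lower in both of null replicates 1 and 2 than in both of 3 and 4, as were 37.6% of tested genes.

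The TPM of *Hes1* and of *Hey1* overlapped between genotypes, but their shares of the *Hes* and *Hey* sum did not. The shares of the other *Hes* and *Hey* genes overlapped. Over the 9 *Hes* and *Hey* genes listed, *Hes1* took 63.2% to 76.9% of the summed TPM in wild-type and 81.004% to 91.1% in null libraries. *Hey1* took 9.81% to 13.2% and 3.32% to 7.04%, respectively. The sums themselves overlapped, at 17.9 to 23.6 TPM in wild-type and 20.7 to 33.5 TPM in null libraries. No test was made on these shares, which are built from values already compared. They also depend on each other, because a larger *Hes1* share leaves less for the other genes. *Hes5*, a Notch target of neural progenitors, was at most 0.123 TPM in every library.

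The 10 genes were set beside 51 other genes of the pathway, of which 39 entered the fit. Among these, 6 were higher (15.4% of 39) and 1 was lower in null libraries, beside 10.5% and 6.4% of all tested genes. The other 32 did not pass. In 13 of the 39 the genotypes did not overlap, beside 25.9% of all tested genes. The median log2 fold change of the 39 was 0.05, against -0.01 over all tested genes. Without null replicates 1 and 2, 3 remained higher and none was lower in limma, beside 2.08% and 1.22% of all genes. At an unadjusted p below 0.05, 9 of the 39 were then higher (23.1%) and 1 lower (2.56%), beside 16.5% and 8.44% of all genes.

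**Figure D4:**
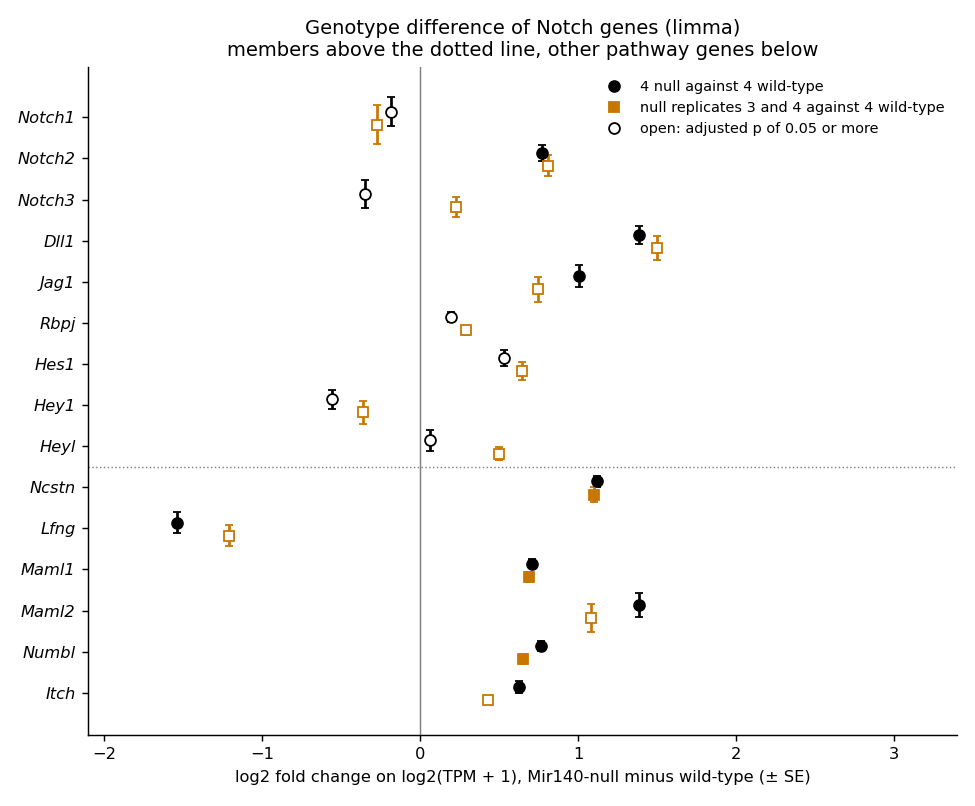
Log2 fold changes with their SE for the Notch genes (above the dotted line) and the called pathway genes described in the text (below it), for all null libraries (circles) and for null replicates 3 and 4 alone (squares). Filled symbols passed the limma test; *Dll1* at 1.39 and *Maml2* at 1.38 are the highest circles and *Lfng* at -1.54 is the lowest.

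Among the protease genes, *Ncstn* was higher. It encodes nicastrin, the substrate-binding subunit of γ-secretase, the complex that makes the final cut of the receptor. *Ncstn* had 13.3, 11.4, 13.9 and 12.6 TPM in wild-type and 28.4, 29.9, 23.8 and 34.2 TPM in null libraries. The ranges were far apart, with a log2 fold change of 1.12 (SE 0.13, limma adjusted p = 0.00525). *Ncstn* passed in each fit that left out 1 library and also without null replicates 1 and 2 (1.10, limma adjusted p = 0.0401).

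Of the 6 coactivator genes, the Mastermind-like genes *Maml1* and *Maml2* were higher. *Maml1* had 6.56, 6.95, 6.03 and 6.88 TPM in wild-type and 11.6, 11.6, 11.1 and 11.4 TPM in null libraries, with little spread within either genotype. Its log2 fold change was 0.71 (SE 0.10, limma adjusted p = 0.00758), and 0.69 without null replicates 1 and 2 (limma adjusted p = 0.0442). *Maml2* had 3.44, 9.005, 6.97 and 7.84 TPM in wild-type and 26.3, 20.3, 13.4 and 16.4 TPM in null libraries. Its highest values were those of null replicates 1 and 2, and its log2 fold change of 1.38 (SE 0.29, limma adjusted p = 0.0202) became 1.08 without them (limma adjusted p = 0.126). The *Maml2* call was also lost when wild-type replicate 3 or null replicate 2 was left out alone.

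Both inhibitor or turnover genes that rose encode proteins known to restrain the receptor. *Numbl*, a relative of Numb, averaged 15.02 ± 1.07 TPM in wild-type and 26.3 ± 3.30 TPM in null libraries (SD, n = 4 each), a log2 fold change of 0.76 (SE 0.12, limma adjusted p = 0.00865). It stayed past the threshold without null replicates 1 and 2 (0.65, limma adjusted p = 0.0443). *Itch*, a ubiquitin ligase, averaged 10.4 ± 0.33 and 16.9 ± 3.15 TPM (SD, n = 4 each), a log2 fold change of 0.63 (SE 0.14, limma adjusted p = 0.0232) that became 0.43 without these libraries (limma adjusted p = 0.0817). The *Itch* call was lost in 4 of the 8 single omissions, those of wild-type replicates 1, 3 and 4 and null replicate 2.

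*Lfng* was the pathway gene that was down-regulated. It encodes lunatic fringe, a glycosyltransferase that extends sugars on the receptor and alters its response to the ligand families. *Lfng* had 5.89, 4.17, 7.49 and 8.40 TPM in wild-type and 0.804, 1.21, 2.33 and 2.003 TPM in null libraries. The highest null value was below the lowest wild-type value, and null replicates 1 and 2 were the lowest. Means were 6.49 ± 1.86 and 1.59 ± 0.703 TPM (SD, n = 4 each), with a log2 fold change of -1.54 (SE 0.26, limma adjusted p = 0.0108). Without null replicates 1 and 2 it was -1.21 (limma adjusted p = 0.0647). *Lfng* made up 61.8% to 83.3% of the summed TPM of the fringe genes in wild-type and 31.9% to 46.7% in null libraries.

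The annotated miR-140-3p word was present in *Maml1* and *Itch* and absent from *Ncstn*, *Maml2*, *Numbl* and *Lfng*. Across the 51 pathway genes, 17 held it, beside 19.0% of tested genes with a 3′UTR. The shifted word was present in 12 of the 51, beside 20.2% of tested genes, and in none of the genes just named. The *Maml1* match is shown because this gene passed in every single omission (chr11:50257821-50257850, minus strand, mm10, word in capitals).
Maml1: aacagagacgaCTGTGGTgttttcagtgtt

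The word TGGGAA, which is part of the RBPJ consensus, was sought on both strands in RefSeq promoters (GRCm38.p6, 250 bases before to 50 after the gene start). It was found in 2 of 7 Notch genes with an entry (*Rbpj* and *Hey2*), and in 28.3% of 27025 genes. Among pathway genes it occurred in 14 of 39, including *Lfng* and *Maml2*. *Hes1*, *Hey1* and *Heyl* were not used here.

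Genes with a pattern most like that of *Dll1* and of *Rbpj* were ranked among 13117 protein-coding genes by root-mean-square difference of centred log2(TPM + 1) over the 8 libraries. Those nearest to *Dll1* were *Tmem51* (0.150), *Cdk6* (0.163) and *Inhba* (0.168), where the root-mean-square of *Dll1* itself was 0.746. *Cdk6* encodes a cell cycle kinase and *Inhba* a subunit of activin, and the log2 fold changes of these genes were 1.43, 1.37 and 1.19. Those nearest to *Rbpj* were *Cpped1* (0.0321), *Prps1l3* (0.0471) and *Abca7* (0.0580), beside 0.155 for *Rbpj* itself. *Cpped1* was at 1.43 to 2.17 TPM and *Abca7* at 0.408 to 0.846 TPM, against 25.8 to 34.05 TPM for *Rbpj*. At such low levels the pseudocount of 1 TPM shrinks differences, so nearness to *Rbpj* does not mean equal TPM ratios. This likeness includes the genotype difference and is a description.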

How the data were processed

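RNA from rib chondrocytes was sequenced after stranded poly(A) selection as single reads of 75 bases. The authors estimated transcript abundance with Salmon against the mm10 transcriptome and deposited TPM per gene, with 52325 identifiers in each of the 8 libraries and the same total in each, a unit that keeps no depth. FastQC 0.11.7 and DESeq2 are named in the submitters' notes. The study's own count test, DESeq2 with batch effects estimated by RUVseq, could not be run on TPM. The main fit here holds no such factor. Groups came from the labels.

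Values were analysed as log2(TPM + 1) in limma 3.58.1 (R 4.3.3; mean-variance trend) for genes of at least 0.5 TPM in at least 4 libraries, with Benjamini-Hochberg adjustment over 17177 genes. Groups of 4 against 4 libraries were compared. The method was tested on simulated data. Alternatives changed the pseudocount, filter, scaling, estimated factors, array weights, replicate block and samples. Control genes were the tested genes outside the 5000 of smallest p in the main fit. They were therefore chosen from these same data and are not independent controls. The Notch genes, pathway and marker lists were chosen with earlier results of these data known. Named genes were the 10 genes, called pathway genes up to the first 15 by p, *Notch4*, *Jag2*, *Dll4*, *Hes5*, and the 3 nearest genes to the member of smallest p and of highest mean. The result of 1 called pathway gene is not reported here. Sequences were read from RefSeq (GRCm38.p6) and mm10 with GENCODE M21.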

Additional observations from a re-analysis of the deposited data

Results flagged for a closer look

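A library was noted where its gap to the nearest library of its genotype, divided by the range of the genotype, exceeded Dixon's critical value for 4 samples. Of 50 such group values, 5 were noted, and chance gives about 1 in 20. *Dll1* was 14.7 TPM in *Mir140*-null replicate 4, beside 9.77 to 10.2 TPM in the other null libraries. *Rbpj* was 26.1 TPM in null replicate 1, beside 33.0 to 34.05 TPM. *Hey1* was 2.36 TPM in null replicate 3, beside 0.834 to 0.966 TPM. *Jag2* was 3.95 TPM in null replicate 4, beside 1.71 to 1.73 TPM. In wild-type, *Notch4* was 1.14 TPM in replicate 3, beside 0.284 to 0.365 TPM. The cause of these gaps was not tested.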

How the results depend on the processing

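Of 3 Notch genes called higher, 1 remained with no filter or with 1 control-gene factor, 1 to 3 when single libraries were left out, and 0 without null replicates 1 and 2. None was called lower in the main comparison, and single omissions gave 0 to 1. Over all genes, 1797 higher and 1100 lower calls became 977 and 539 with no filter, 979 and 426 with 1 control-gene factor, 779 to 1553 and 419 to 1214 in single omissions, and 357 and 210 without null replicates 1 and 2. Lower calls numbered 605 with a mean of at least 5 TPM and 2016 with 1 residual factor. With 2 residual factors they were 2153, beside 2708 higher calls. Pathway genes called higher (6) became 10 with 1 or 2 residual factors, 3 to 7 in single omissions and 3 without null replicates 1 and 2. Those called lower (1) became 0 with a mean of at least 5 TPM, which leaves out *Lfng*, and 0 without null replicates 1 and 2. They became 3 after quantile normalization, 2 with median-ratio scaling or either number of residual factors, and 1 to 2 in single omissions. The median log2 fold change of the Notch genes was 0.65 with a mean of at least 5 TPM, which leaves out *Notch3*, *Hey1*, *Hey2* and *Heyl*, against a median of 0.11 over all genes. Signs turned for *Notch1* (-0.47 to 0.029 in single omissions, positive only without null replicate 3), *Notch3* (0.20 with 1 control-gene factor, 0.23 without null replicates 1 and 2), *Heyl* (-0.011 with a pseudocount of 0.1, -0.14 to 0.21 in single omissions) and *Jag2* (0.094 after quantile normalization, 0.17 with 1 control-gene factor, 0.035 with array weights, 0.19 without null replicates 1 and 2, -0.27 to 0.15 in single omissions). Of all single-gene values, 282 kept direction and side of the threshold, 37 lost the call, 1 gained it and 15 changed sign. The cause of these changes was not tested. Omissions also leave fewer libraries in the fit.

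Replicate numbers shared across genotypes did not pair the libraries: the correlations of deviations from the group means were 0.03, 0.02, 0.07 and -0.01, and 2 of 8 libraries correlated best with their own number. A fit with the replicate block called 671 genes higher and 454 lower, 2 Notch genes higher, and 3 pathway genes higher and 1 lower.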
